A study of Mus musculus with 3 samples.

Results

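The cells described here are cardiac fibroblasts (FBs) chosen by their summed transcripts of Postn, Thbs4 and Cilp, 3 genes for secreted matrix proteins. A single cell need not carry all 3. A cell counted as an FB when it had at least 3 unique molecular identifiers (UMIs, each a counted transcript) of Col1a1, Col1a2 and Pdgfra and over 2 times as many of these as of the marker genes of endothelial cells (ECs), of blood cells (BCs) and of mural cells in turn. FBs with at least 5 UMIs of Postn, Thbs4 and Cilp together, and no more than 1 UMI of Wif1, Comp and Chad together, were kept. This rule took 244 of 1419 FBs, among 6915 cells with at least 200 genes each. Because the counts of Postn, Thbs4 and Cilp chose the cells, the levels of these 3 genes are given as a description only.

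Postn encodes periostin, a matricellular protein that FBs secrete on activation and that helps collagen fibrils to be cross-linked. Thbs4, a thrombospondin, is known from tendon and from the pressure-loaded heart, and Cilp, a matrix protein first known from cartilage, binds TGF-beta family ligands in the matrix. In the adult heart such FBs stand beside quiescent interstitial FBs, which maintain the collagen network, and beside FBs of the valves.

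The study dissociated ventricles, without the atria, and sequenced the cells that were not cardiomyocytes. The animals were wild-type C57BL/6JJcl male mice, and transverse aortic constriction (TAC), a ligature that narrows the aortic arch and loads the left ventricle with pressure, was performed at 8 weeks of age. Cells were taken at 0 weeks (healthy phase, the control), 2 weeks (adaptive hypertrophy phase) and 12 weeks (heart failure phase), so that the phases differ in TAC, in time after it and in the age of the mice. There was 1 droplet library per phase, the number of hearts behind each is not given in the sources used here, and the phase cannot be told apart from the library. No difference below therefore has a replicate check, and no p-value is given. Every interval is a 95% interval for counting error only (exact Poisson for levels, Clopper-Pearson for shares, conditional binomial for ratios).

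The libraries held 3900, 2239 and 802 deposited cells at 0, 2 and 12 weeks, of which 3892, 2231 and 792 had at least 200 genes. FBs made up 29.8%, 4.35% and 20.5% of these cells. Between 1 and 5 cell barcodes were shared by each pair of libraries, and none of them belonged to a Postn Thbs4 Cilp FB. These FBs held 897385, 97111 and 155755 UMIs in all, with a median of 4627, 2862 and 4019 UMIs per cell, and thus were deeper than the other FBs, whose medians were 2833, 1559.5 and 2543.5. At 2 weeks their median mitochondrial share was 7.28%, against 2.22% at 0 weeks and 3.78% at 12 weeks, and the 5 deepest of the 31 cells held 38.5% of their UMIs (7.05% at 0 weeks and 37.1% at 12 weeks).

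In the healthy heart 183 of 1160 FBs met the rule, a share of 15.8% (13.7 to 18.0%). At 2 weeks 31 of 97 did, 32.0% (22.9 to 42.2%), and at 12 weeks 30 of 162 did, 18.5% (12.9 to 25.4%). The share at 2 weeks lay above that at 0 weeks beyond counting error, and the interval at 12 weeks overlapped both. A limit set in UMIs is met more easily by a deep cell, so the FBs were also thinned to 1000 UMIs each with a limit of 2. The shares were then 16.8% (14.7 to 19.1%), 47.3% (35.6 to 59.3%) and 28.7% (21.6 to 36.6%), with 0, 23 and 12 shallower FBs left out, so that the 12-week share also lay above the healthy one. Over the limit but with more than 1 UMI of Wif1, Comp and Chad, genes known from valve and cartilage-like tissue, were a further 50, 19 and 25 FBs (4.31%, 19.6% and 15.4%), called valve-gene FBs here and counted among the other FBs. As a share of all cells the Postn Thbs4 Cilp FBs made up 4.70%, 1.39% and 3.79%, beside FB shares of 29.8%, 4.35% and 20.5%.

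**Figure D1:**
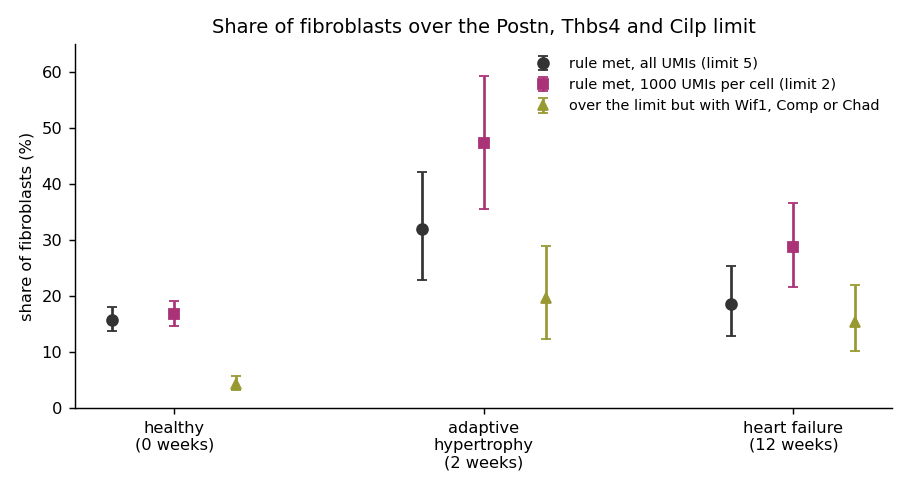
Share of FBs (percent, y axis) that met the Postn, Thbs4 and Cilp rule in the libraries at 0, 2 and 12 weeks, as deposited and after thinning to 1000 UMIs, beside the share of valve-gene FBs; bars are 95% Clopper-Pearson intervals. The share is highest at 2 weeks in each series of points, at 32.0% as deposited and 47.3% after thinning.

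Postn supplied most of the transcripts that chose the cells. It gave 69.3%, 81.9% and 66.9% of the rule's UMIs at 0, 2 and 12 weeks, against 22.4%, 14.5% and 26.6% for Cilp and 8.31%, 3.55% and 6.49% for Thbs4. A Postn UMI was seen in 95.1%, 100% and 90% of the chosen FBs, with medians of 7, 9 and 7 UMIs per cell. In ECs, which should lack the gene, the share with a Postn UMI was 3.35%, 1.95% and 3.69% at median depths of 2337, 1633 and 1415.5 UMIs. A Cilp UMI was seen in 67.2%, 74.2% and 53.3% of the FBs, and a Thbs4 UMI in 20.2%, 32.3% and 33.3%. All 3 genes were seen together in 35 of 183, 9 of 31 and 5 of 30, and Postn alone in 60, 7 and 10. Thus the label by 3 genes describes the summed cells, whereas the single cell was in most cases chosen by Postn, with or without Cilp.

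The summed Postn level of these FBs was 2388 counts per 1000000 UMIs (CPM; 2288 to 2491) at 0 weeks, 8073 CPM (7518 to 8659) at 2 weeks and 2119 CPM (1896 to 2360) at 12 weeks. At 2 weeks 1 cell held 20.0% of these UMIs, and all 31 cells had at least 2. In the other FBs the level was 298, 2017 and 682 CPM. These cells are of 2 kinds, and Postn was at 133, 513 and 153 CPM in the FBs under the limit and at 2102, 3589 and 1750 CPM in the valve-gene FBs. Cilp was at 771, 1431 and 841 CPM in the chosen FBs, and Thbs4 at 286, 350.1 and 206 CPM. The valve-gene FBs had more of both, with Thbs4 at 911, 706 and 398 CPM and Cilp at 1291, 1754 and 1483 CPM, and with Thbs4 in 44%, 36.8% and 32% of cells. Thbs4 was thus no higher in the chosen FBs than in the valve-gene FBs. Near the limit, 25, 4 and 1 FBs had exactly 4 UMIs of the 3 genes and 17, 0 and 5 had exactly 5.

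**Figure D2:**
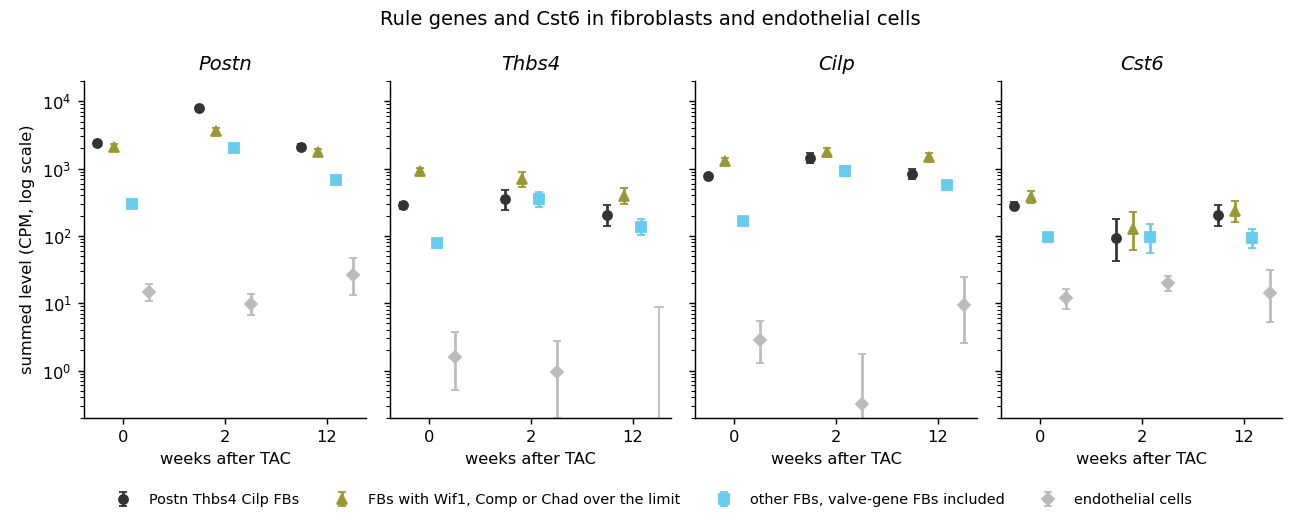
Summed levels (CPM, log axis) of Postn, Thbs4, Cilp and Cst6 at 0, 2 and 12 weeks in the Postn Thbs4 Cilp FBs, the valve-gene FBs, the other FBs (valve-gene FBs included) and ECs, with 95% Poisson intervals; a line without a marker is the upper limit where no UMI was seen. Postn in the chosen FBs peaks at 8073 CPM at 2 weeks, and Thbs4 is highest in the valve-gene FBs in all 3 libraries.

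The promoters of the 3 rule genes and of Col8a1, a collagen gene outside the rule that stood higher in these FBs, are shown to set out which core and motif letters each holds. Each run is the 250 bases before the RefSeq gene start on GRCm38.p6, in the direction of transcription. Capitals mark matches, on either strand, to 4 motifs. TATAAA is a core promoter element. GGAATG is the core that TEAD factors bind. TGTGGT is the core that RUNX factors bind. TGANTCA is that of AP-1. RefSeq has 2 entries for Postn, and the one nearest to the annotated gene start was used.
Postn, chr3:54360857-54361106, plus strand: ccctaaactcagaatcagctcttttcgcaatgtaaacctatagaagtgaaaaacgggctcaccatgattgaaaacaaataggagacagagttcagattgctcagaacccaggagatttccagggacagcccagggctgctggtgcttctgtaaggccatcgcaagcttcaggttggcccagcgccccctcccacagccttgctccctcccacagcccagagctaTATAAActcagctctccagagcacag
Thbs4, chr13:92794819-92795068, minus strand: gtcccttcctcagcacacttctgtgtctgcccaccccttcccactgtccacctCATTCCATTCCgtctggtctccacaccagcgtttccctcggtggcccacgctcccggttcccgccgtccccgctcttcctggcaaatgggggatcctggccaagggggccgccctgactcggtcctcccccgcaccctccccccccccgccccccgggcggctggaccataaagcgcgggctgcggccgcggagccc
Cilp, chr9:65264930-65265179, plus strand: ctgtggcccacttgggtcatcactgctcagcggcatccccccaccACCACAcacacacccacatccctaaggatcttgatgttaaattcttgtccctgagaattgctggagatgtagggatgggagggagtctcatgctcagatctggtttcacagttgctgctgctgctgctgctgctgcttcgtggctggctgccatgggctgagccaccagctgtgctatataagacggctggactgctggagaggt
Col8a1, chr16:57754738-57754987, minus strand: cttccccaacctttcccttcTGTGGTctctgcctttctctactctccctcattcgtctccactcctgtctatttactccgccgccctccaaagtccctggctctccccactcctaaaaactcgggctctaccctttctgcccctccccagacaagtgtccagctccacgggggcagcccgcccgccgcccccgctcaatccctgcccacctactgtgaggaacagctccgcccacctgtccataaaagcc

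The genes lie on GRCm38 (GENCODE vM21) at chr3:54361109-54391037 on the plus strand (Postn, ENSMUSG00000027750), chr13:92751590-92794818 on the minus strand (Thbs4, ENSMUSG00000021702), chr9:65265180-65280605 on the plus strand (Cilp, ENSMUSG00000042254) and chr16:57624258-57754737 on the minus strand (Col8a1, ENSMUSG00000068196). All are protein-coding, and each printed run lies upstream of the first exon. The Postn promoter holds TATAAA at 26 to 21 bases before the start, letters found in 12.4% of 32851 promoters of the same length. Thbs4 holds GGAATG in 2 overlapping copies on the opposite strand, at 197 to 192 and 192 to 187 bases before the start (12.6% of promoters). The TGTGGT letters stand at 205 to 200 bases in Cilp, on the opposite strand, and at 230 to 225 bases in Col8a1 (14.1% of promoters). TGANTCA, in 6.75% of promoters, is in none of the 4 windows. By these exact letters no motif is shared by the 3 rule genes. Variants were not searched, so TATA-like letters in the other runs, as near the Cilp start, are not marked. A match is a description of letters, not of a bound site.

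Genes that the rule did not use are described next. Cst6, which encodes a secreted inhibitor of cysteine proteases, is listed with the 3 rule genes as a marker of these FBs. The cells and lists were set with earlier results of these data known, so Cst6 is no independent check of the label. Cst6 was at 283 CPM (249 to 320.1) at 0 weeks, 92.7 CPM (42.4 to 176) at 2 weeks and 206 CPM (141 to 290.0) at 12 weeks, against 97.1, 94.7 and 93.2 CPM in the other FBs. The ratio was thus 2.91 (2.45 to 3.46) at 0 weeks and 2.21 (1.34 to 3.59) at 12 weeks, whereas at 2 weeks it was 0.978 (0.384 to 2.32) on 9 UMIs in 5 cells. A Cst6 UMI was seen in 43.7%, 16.1% and 30% of the chosen FBs and in 3.15%, 3.37% and 2.05% of ECs. In the valve-gene FBs Cst6 was at 384, 125 and 233 CPM, so the chosen FBs were above the pooled other FBs at 0 and 12 weeks but not above the valve-gene FBs.

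General FB genes outside the gate (Dcn, Tcf21, Dpt, Lum and Mmp2) summed to 16881.3, 9566 and 15017.2 CPM in the chosen FBs and to 536 CPM or less in ECs and BCs. In the other FBs they summed to more, 19002.9, 14701.0 and 21782.1 CPM. The gate itself keeps the genes of the other gates low in FBs. The 4 EC gate genes summed to 60.2, 41.2 and 83.5 CPM (ECs themselves 3000, 4340 and 4321 CPM), the 3 BC gate genes to 51.3, 0 and 19.3 CPM, and the 3 mural gate genes to 35.7, 61.8 and 83.5 CPM. Of markers that the gate did not use, 6 of ECs summed to 393, 185 and 238 CPM in the chosen FBs and to 21799.3, 30940.7 and 23289.3 CPM in ECs. Likewise 7 of blood cells summed to 289, 61.8 and 366 CPM in the chosen FBs and to 49139.8, 39002.9 and 45301.4 CPM in BCs. Of 5 epicardial markers, only Wt1 had a UMI, and only at 0 weeks. The 5 neural markers summed to 68.0, 402 and 193 CPM in the chosen FBs, with all 5 seen at 2 weeks. In the other FBs the neural sums were 42.1, 1443 and 36.4 CPM.

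The chosen FBs were not uniform. In the healthy heart Postn outnumbered Thbs4 and Cilp together in 124 of 183 cells (67.8%, 60.5 to 74.5%), the reverse held in 53 cells, and the counts were equal in 6. At 2 weeks Postn led in 25 of 31 and at 12 weeks in 20 of 30. Between the 124 and the 53 healthy cells, 17 of 1421 genes (1.2%) were at least 2-fold higher where Postn led and 12 (0.844%) where Thbs4 and Cilp led. Here and below the 2-fold size rule takes genes with a mean level of at least 100 CPM over the groups compared and at least 20 UMIs, outside the gate, rule, mitochondrial, ribosomal protein and haemoglobin genes, and log2 values are of CPM with 1 added.

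Apoe, a lipid carrier that resting FBs secrete, was at 1739 CPM in the Postn-led cells and 310 CPM in the others, a ratio of 5.62 (4.44 to 7.20), with a UMI in 81 of 124 and 35 of 53 cells. Timp3, a matrix-bound inhibitor of metalloproteinases, was 2.64-fold higher (2.06 to 3.44) where Postn led, and Serpine2, a protease inhibitor, 2.39-fold (1.83 to 3.16). Cdkn1a, which encodes the cell cycle inhibitor p21, was 2.61-fold higher (2.09 to 3.30) in the same cells. Where Thbs4 and Cilp led, Igfbp5, a binding protein of insulin-like growth factors, was 4.13-fold higher (2.88 to 5.99) and Prg4, the lubricant of joint surfaces, 3.45-fold higher (2.43 to 4.94). Angptl7, known from cartilage and the eye, was 2.69-fold higher (1.86 to 3.89) there. These 7 genes each had a UMI in at least 21 cells of the higher group, whereas 65.7% of the Ccl2 UMIs in the Postn-led cells came from 1 cell.

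Compared with the other FBs of the same library, the Postn Thbs4 Cilp FBs of the healthy heart differed by at least 2-fold in few genes. At 0 weeks 7 of 1398 genes (0.501%) were at least 2-fold higher and 17 (1.22%) at least 2-fold lower. At 2 weeks 80 of 1454 (5.5%) were higher and 59 (4.06%) lower, and at 12 weeks 51 of 1439 (3.54%) were higher and 36 (2.5%) lower. With 31 and 30 cells the later counts carry more counting error than the healthy one. The median gene stood at 0.10, 0.10 and 0.15 (log2) in the 3 comparisons, and centring on it turned the splits into 63 higher and 71 lower at 2 weeks and 29 higher and 57 lower at 12 weeks. After thinning with a limit of 2, 19 genes were higher and 24 lower at 0 weeks. The thinned counts were 32 and 27 at 2 weeks and 51 and 69 at 12 weeks.

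Among the genes tested in the healthy library the largest ratio was that of Ltbp2, which encodes a latent TGF-beta binding protein of elastic microfibrils. It was at 179 CPM (153 to 209) in the chosen FBs and 55.0 CPM in the other FBs at 0 weeks, a ratio of 3.26 (2.61 to 4.07). At 12 weeks it was at 308 and 123 CPM (ratio 2.51, 1.67 to 3.77), and at 2 weeks at 556 and 351 CPM (ratio 1.58, 1.08 to 2.31). Against the FBs under the limit alone the ratio was 5.33 (4.11 to 6.96), 3.64 (1.99 to 7.10) and 6.48 (3.51 to 12.7) at 0, 2 and 12 weeks. Those FBs had no limit on Wif1, Comp and Chad, and Comp was at 138, 1135 and 588 CPM in them. In the valve-gene FBs Ltbp2 was at 289, 558 and 275 CPM, so the chosen FBs were above the pooled other FBs in all 3 libraries but not above the valve-gene FBs beyond counting error. It was seen in 41.5%, 54.8% and 50% of the chosen FBs but in 0.394%, 0.130% and 0.410% of ECs.

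Col8a1 encodes a short-chain, network-forming collagen. Its level at 0 weeks was 1402 CPM (1325 to 1482) against 442 CPM in the other FBs, a ratio of 3.17 (2.93 to 3.43), with a UMI in 154 of 183 cells. At 2 weeks the ratio was 2.77 (2.19 to 3.52), but 1 cell held 32.8% of the UMIs, and at 12 weeks it was 1.25 (0.970 to 1.60). The value depends on the comparison cells. Against the FBs under the limit alone it was 3.75 (3.45 to 4.08), 6.91 (4.53 to 11.0) and 2.85 (2.05 to 3.98) at 0, 2 and 12 weeks. This comparison leaves out the valve-gene FBs but keeps FBs under the limit that hold Wif1, Comp or Chad UMIs. The valve-gene FBs held Col8a1 at 1192, 1105 and 1043 CPM, beside 1402, 1884 and 609.9 CPM in the chosen FBs. Meox1, a homeobox factor of activated FBs, was at 514 CPM at 0 weeks against 229 CPM, a ratio of 2.25 (1.99 to 2.53). Its ratio was 1.34 (0.877 to 2.02) at 2 weeks and 1.28 (1.01 to 1.62) at 12 weeks, and against the FBs under the limit alone 2.83 (1.52 to 5.61) and 2.38 (1.77 to 3.20). In the valve-gene FBs Meox1 was at 657, 501 and 1036 CPM, beside 514, 433 and 687 CPM in the chosen FBs.

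Other genes with a log2 ratio above 0 in each library encode matrix, surface and intracellular proteins. Aspn, a proteoglycan that binds collagen and TGF-beta, had log2 ratios of 0.98, 0.91 and 0.79 at 0, 2 and 12 weeks. Mfap5, a microfibril protein, had 0.85, 0.94 and 0.83, and Vcan, the large proteoglycan versican, 0.89, 0.76 and 1.02. F2r, the thrombin receptor, stood at 0.93, 1.55 and 0.68. Dclk1, a microtubule-associated kinase, stood at 0.86, 0.58 and 1.34, Dpysl3, a cytoskeletal regulator, at 0.82, 0.41 and 0.44, and Tppp3, a tubulin-binding protein, at 0.80, 1.41 and 1.36. S100a4, a calcium-binding protein, had 1.08, 1.40 and 1.89, and Prnp, the prion protein, 0.87, 1.02 and 1.80. The 12-week values of this last pair rest largely on a single cell each, with 78.6% of the S100a4 UMIs and 58.0% of the Prnp UMIs. With a limit of 10 rule UMIs the 2-week values of S100a4, Prnp and Tppp3 turned to -1.33, -1.29 and -0.09. At 12 weeks a limit of 1500 CPM turned S100a4 to -2.36 and Prnp to -0.26, and thinning turned S100a4 to -0.67.

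Among the genes that were lower, C3, the central complement protein, was at 54.6, 113 and 12.8 CPM in the chosen FBs against 269, 385 and 441 CPM in the other FBs. It was 4.92-fold lower (3.68 to 6.70) at 0 weeks and 3.40-fold lower (1.78 to 7.12) at 2 weeks, and at 12 weeks the ratio of the levels was 0.0291 (0.00350 to 0.107) on 2 UMIs. The groups were thus well apart in each library. Cxcl14, a chemokine of quiescent FBs, was 3.29-fold lower (2.44 to 4.51) at 0 weeks, with log2 ratios of -0.95 at 2 weeks and -3.26 at 12 weeks on 5 and 3 UMIs.

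Apoe was at 1322, 875 and 3461 CPM against 3482, 3996 and 6540 CPM, 2.63-fold (2.48 to 2.80), 4.57-fold (3.64 to 5.79) and 1.89-fold (1.72 to 2.08) lower. The metallothioneins Mt1 and Mt2, which bind zinc and copper, had log2 ratios of -1.34, -0.79 and -1.57 and of -1.62, -0.14 and -2.17. Clec3b, the plasminogen-binding tetranectin, had -1.16, -1.06 and -0.25. G0s2, an inhibitor of lipolysis, had -1.53 at 0 weeks and -0.87 at 12 weeks, and at 2 weeks no UMI was seen, so that it was at least 2.35-fold lower against a floor of 3 UMIs over the group. Fgl2, a fibrinogen-like protein, had -1.18 at 0 weeks and -1.13 at 2 weeks and was 4.05-fold lower (2.19 to 8.33) at 12 weeks. Gsta3, a glutathione transferase, had -1.39 and -1.15 at 0 and 12 weeks, and at 2 weeks both groups were under the floor. Thinning turned Fgl2 to 0.05 at 2 weeks and Gsta3 to 0.21 at 12 weeks.

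Fmod and 1500015O10Rik had the most negative log2 ratios at 0 weeks, at -2.89 and -3.23. Both were concentrated in the valve-gene FBs, at 1310 CPM each in the healthy library, against 24.5 and 22.3 CPM in the chosen FBs. The rule left those cells out by 3 other genes. The FBs under the limit still include cells with Wif1, Comp or Chad UMIs. Against these FBs alone the log2 ratio of Fmod, a collagen-binding proteoglycan of tendon, was -1.77 at 0 weeks and 0.26 at 12 weeks. For 1500015O10Rik, a secreted protein of cartilage, it was -2.34 and -0.88. With every FB over 1 UMI of Wif1, Comp and Chad left out of the comparison, Fmod turned to 0.95 at 0 weeks and 0.85 at 2 weeks and 1500015O10Rik to 0.30 at 2 weeks and 1.59 at 12 weeks, so the direction of both depends on which FBs they are set against. Thinning turned 1500015O10Rik to 0.42 and 0.65 at 2 and 12 weeks.

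**Figure D3:**
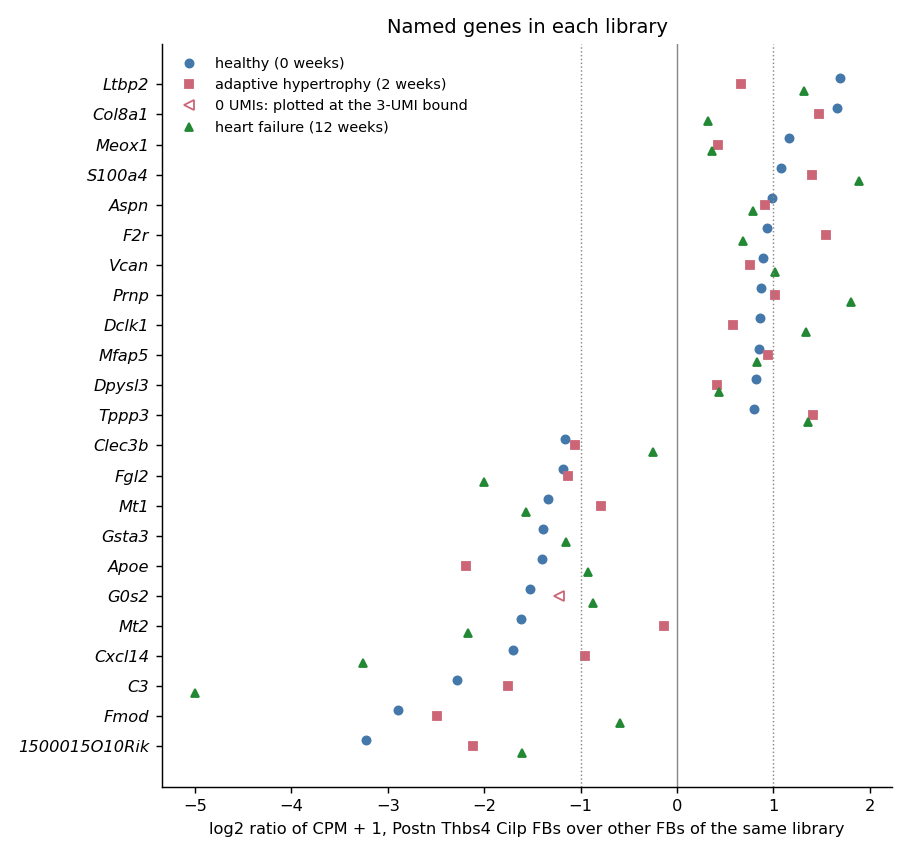
log2 ratio (CPM with 1 added, x axis) of 23 genes between Postn Thbs4 Cilp FBs and the other FBs of the same library, at 0 weeks (circles), 2 weeks (squares) and 12 weeks (triangles); the hollow triangle is G0s2 at 2 weeks, with 0 UMIs, at its 3-UMI bound, and Gsta3 at 2 weeks is not drawn. By the choice of genes all values of a gene lie on 1 side of 0; the spread between libraries is widest for C3, from -1.75 to -5.00.

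Whether these genes differed only at the limit was examined by sorting FBs with no more than 1 UMI of Wif1, Comp and Chad by their UMIs of the 3 rule genes. In the healthy library Ltbp2 was at 14.6 CPM in the 604 FBs with 0 such UMIs, 31.3 CPM in the 180 with 1 to 2, 47.4 CPM in the 71 with 3 to 4, 117 CPM in the 79 with 5 to 9 and 218 CPM in the 104 with 10 or more. Col8a1 was at 290.0, 498, 775, 782 and 1784 CPM in the same order. Col8a1 thus had like levels in the bins on either side of the limit. Cst6 was at 42.6, 71.4, 229, 225 and 319 CPM, and already as high just under the limit as just above it.

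Genes that were lower in the chosen FBs had mixed orders over the 5 bins. In the healthy library C3 was at 354, 206, 150.2, 73.0 and 43.3 CPM, and Clec3b at 1977, 1593, 870, 926 and 568 CPM. Cxcl14 was at 260.2 CPM in the lowest bin and at 29.2 to 118 CPM in the others. Apoe was at 2926, 2337, 2819, 1933 and 944 CPM. Cthrc1, a secreted protein of FBs in scars, was at 0.583, 3.48, 3.95, 0 and 63.1 CPM, and 60.0% of its UMIs in the chosen FBs came from 1 cell. At 12 weeks, where the bins hold 48, 24, 8, 15 and 15 cells, C3 was at 1064 CPM in the lowest bin and at 40.6 and 0 CPM in the top bins, Ltbp2 at 19.9, 112, 0, 224 and 347 CPM in order, and Col8a1 at 239, 177, 127, 345 and 732 CPM. At 2 weeks, with 12, 10, 9, 11 and 20 cells, C3 was at 1334, 156, 53.7, 41.9 and 137 CPM and Cst6 at 35.1, 0, 215, 0 and 123 CPM, which is not the healthy order. Depth moves with the bin, and its part in these values was not tested.

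**Figure D4:**
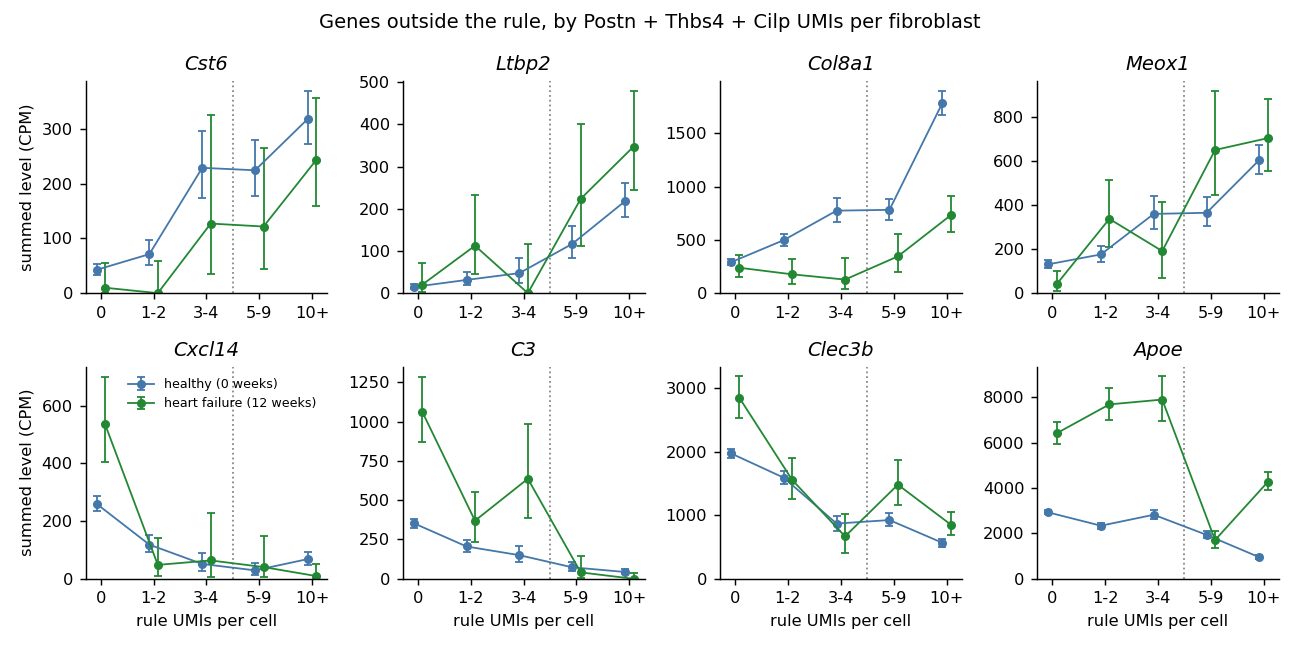
Summed levels (CPM, y axis) of 8 genes outside the rule in FBs grouped by their UMIs of Postn, Thbs4 and Cilp (x axis), at 0 and 12 weeks, with 95% Poisson intervals; the dotted line is the limit of 5 UMIs, and FBs with more than 1 UMI of Wif1, Comp and Chad are left out. In the healthy library Col8a1 runs from 290.0 to 1784 CPM and C3 from 354 to 43.3 CPM from the lowest to the highest bin.

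By lists, resting FB genes stood lower in the chosen FBs. The lists were set with earlier results of these data known, so these values are a description. Of 17 resting interstitial FB genes that passed the filter at 0 weeks, 6 were at least 2-fold lower (Dpep1, Cxcl14, Lpl, Mt2, Apoe and Mt1), 15 lay below 0, and the median log2 ratio was -0.74, where all genes had 0.10. At 12 weeks 6 of 15 were lower, with a median of -0.73, and at 2 weeks 2 of 12 (Apoe and Gsn), with a median of -0.34. None was higher in any library. Lpl, lipoprotein lipase, was 3.13-fold lower (2.61 to 3.78) at 0 weeks, and Gsn, the actin-severing gelsolin, was at 19252.6 against 32117.1 CPM. Of the complement genes that passed, 1 of 4, 4 of 5 and 2 of 6 were lower at 0, 2 and 12 weeks, with C3 among them in each library and C1s1 at 2 and 12 weeks. Over all genes tested, 1.22%, 4.06% and 2.5% were lower.

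Few collagens passed 2-fold between the chosen and the other FBs. Their median log2 ratios were 0.13, 0.62 and 0.39 at 0, 2 and 12 weeks, where all genes had 0.10, 0.10 and 0.15. Col8a1 was the 1 of 11 that was at least 2-fold higher at 0 weeks and the 1 of 13 at 2 weeks, and none of 10 was at 12 weeks, although 10, 12 and 10 of them lay above 0. Over all genes tested, 0.501%, 5.5% and 3.54% were higher. Col3a1, the fibrillar collagen of type III, was at 3017 against 2440 CPM at 0 weeks, a ratio of 1.24 (1.18 to 1.29). Among genes of collagen processing none of 8 passed 2-fold at 0 weeks, 5 of 14 did at 2 weeks (Lox, Loxl2, Plod1, Crtap and Plod3) and 1 of 9 at 12 weeks (Loxl2). Loxl2, a lysyl oxidase that cross-links collagen, was at 679.6 against 212 CPM at 2 weeks (ratio 3.21, 2.12 to 4.92) and at 199 against 70.5 CPM at 12 weeks (ratio 2.83, 1.66 to 4.80).

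Contractile genes of myofibroblasts lay above 0 in 9 of 9, 11 of 14 and 10 of 10 cases at 0, 2 and 12 weeks, with medians of 0.32, 0.33 and 0.53, and 3 passed 2-fold, all at 2 weeks (Acta2, Tagln and Cald1). Acta2, smooth muscle actin, was at 165 against 44.6 CPM there, but its 16 UMIs came from 3 of 31 cells. The chosen FBs thus carried little Acta2 as a group, with 108, 165 and 64.2 CPM. In the TGF-beta list 1 of 7, 1 of 10 and 1 of 9 were higher, Ltbp2 at 0 and 12 weeks and Tgfb1, the ligand itself, at 2 weeks, when Tgfb2, another ligand, was at least 2-fold lower. Over all genes tested, 0.501%, 5.5% and 3.54% were higher and 1.22%, 4.06% and 2.5% lower. Tgfb1 was at 127, 227 and 206 CPM against 63.7, 89.2 and 118 CPM, with ratios of 2.00 (1.57 to 2.53), 2.54 (1.27 to 5.17) and 1.74 (1.08 to 2.75). Tnc, the injury matrix protein tenascin C, was below the filter on level, with 52 UMIs in 18 chosen FBs at 0 weeks and 22 UMIs in the other FBs, a ratio of 7.95 (4.74 to 13.7).

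The other lists are given by their counts at 0, 2 and 12 weeks, beside 0.501%, 5.5% and 3.54% higher and 1.22%, 4.06% and 2.5% lower over all genes tested. Matrix glycoproteins had 2 of 24, 3 of 30 and 2 of 25 higher and 0, 1 and 2 lower, and small leucine-rich proteoglycans had none higher and 1 of 8, 2 of 8 and 1 of 7 lower. Proteases and their inhibitors had 1 of 16 (Timp1), 2 of 16 and 0 of 16 higher and 0, 0 and 2 lower. Adventitial FB genes had 0, 2 and 3 of 14 higher and 2, 3 and 1 lower. Wnt modulators had none higher and 0 of 3, 1 of 5 and 2 of 4 lower, and secreted growth factors and cytokines had 0 of 11, 4 of 14 and 0 of 12 higher and 1, 0 and 1 lower. Genes of the endoplasmic reticulum had 0 of 16, 1 of 15 and 1 of 17 higher and none lower. Immediate early genes, which respond to dissociation, had 0 of 18, 0 of 18 and 1 of 17 higher and 0, 1 and 0 lower, and 17 of 18 lay below 0 at 0 weeks (median -0.21). Valve, tendon and cartilage genes had 1 of 8 (Meox1), 0 of 5 and 0 of 8 higher and 2, 2 and 4 lower, those at 12 weeks being Cytl1, 1500015O10Rik, Clu and Angptl7.

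Cycling cells were few. At least 5 UMIs of 12 cell cycle genes, a limit chosen after the values were seen, were found in 5 of 183 chosen FBs (2.73%, 0.893 to 6.26%) and 4 of 977 other FBs (0.409%, 0.112 to 1.05%) at 0 weeks. The 5 cells held 410 of the 424 cell cycle UMIs of the chosen FBs. At 2 weeks 1 of 31 and 0 of 66 FBs reached the limit, and at 12 weeks 0 of 30 and 0 of 132, while ECs were at 4.14%, 0.714% and 0%. The counts after TAC allow no statement on a difference.

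Across phases, collagens and collagen cross-linking genes stood higher in the Postn Thbs4 Cilp FBs at 2 weeks than in those at 0 weeks. Of 1450 genes, 148 (10.2%) were at least 2-fold higher at 2 weeks and 76 (5.24%) lower, while in the other FBs 80 of 1404 (5.7%) were higher and 52 (3.7%) lower. All comparisons with 0 weeks share the healthy library, so their values are only given side by side. Of 13 collagens that passed the filter, 10 were at least 2-fold higher in the chosen FBs, all 13 lay above 0 and the median was 1.38, against 0.07 over all genes. In the other FBs 3 of 12 were, with a median of 0.85.

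Col3a1 was at 3017 CPM at 0 weeks, 7291 CPM at 2 weeks and 2022 CPM at 12 weeks, a ratio of 2.42 (2.22 to 2.63) between 2 and 0 weeks. The other FBs had a ratio of 2.20 (2.05 to 2.35). Col16a1, a collagen that associates with fibrils, was 4.38-fold higher (2.88 to 6.56), and Col5a1, which nucleates fibrils, 2.91-fold (2.22 to 3.79). Basement membrane collagens were among them, with Col4a1 2.48-fold (1.95 to 3.14) and Col4a2 3.01-fold higher (2.25 to 3.97). Col8a1 was 1.34-fold higher (1.15 to 1.57). Without the gate genes Col1a1 and Col1a2, the collagens summed to 8284, 18339.8 and 5733 CPM in the chosen FBs at 0, 2 and 12 weeks. In the other FBs they summed to 6446, 12059.5 and 4304 CPM. With Col1a1 and Col1a2, which helped to choose the FBs, the sums were 12070.6, 27360.4 and 9066 CPM in the chosen FBs and 9962, 19142.6 and 7015 CPM in the other FBs, a description only.

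Lox, lysyl oxidase, which cross-links collagen and elastin, had the largest ratio. It was at 23.4 CPM (14.5 to 35.8) at 0 weeks, 433 CPM (312 to 585) at 2 weeks and 6.42 CPM on 1 UMI at 12 weeks, 18.5-fold higher (10.7 to 32.9) at 2 than at 0 weeks. In the other FBs it was 5.50-fold higher (2.98 to 9.66), and the log2 ratio in ECs was -0.18. A Lox UMI was seen in 7.65%, 45.2% and 3.33% of the chosen FBs and in 2.76%, 1.43% and 3.69% of ECs. The 42 UMIs at 2 weeks came from 14 of 31 cells, the top cell holding 28.6%.

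The family member Loxl3 was 7.70-fold higher (4.03 to 14.6) and Loxl2 2.56-fold (1.92 to 3.38), where the other FBs had log2 ratios of 1.97 and 0.28. Plod1, Plod2 and Plod3, the lysyl hydroxylases that prepare collagen for cross-linking, were 2.17-fold, 2.16-fold and 2.76-fold higher. Together 6 of 14 genes of collagen processing were higher and 1 lower, Pcolce2, an enhancer of procollagen cleavage (2.36-fold, 1.56 to 3.76). Of all genes tested in the chosen FBs, 10.2% were higher and 5.24% lower. In the other FBs none of 10 was higher and 1 was lower, beside 5.7% and 3.7% of all genes tested. Lox and Loxl3 did not pass the filter there, so the counts are not of the same genes. The filter takes the mean level over the groups compared. In the chosen FBs Lox and Loxl3 passed it only through their 2-week level, so they could be counted only as higher. The 6 of 14 thus rest in part on the filter. The 10.2% over all genes tested is open to the same effect, whose size was not tested.

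Of 29 matrix glycoproteins, 9 were at least 2-fold higher at 2 weeks and none was lower, beside 10.2% and 5.24% of all genes tested. In the other FBs 6 of 27 were higher and none was lower, beside 5.7% and 3.7%. Fn1, fibronectin, was at 213, 803 and 116 CPM at 0, 2 and 12 weeks, 3.77-fold higher (2.86 to 4.94) at 2 weeks. Eln, elastin, was at 368, 1061 and 199 CPM, Thbs1, an activator of latent TGF-beta, at 237, 844 and 424 CPM, and Ltbp2 at 179, 556 and 308 CPM. Cthrc1 was at 39.0 and 175 CPM at 0 and 2 weeks and had no UMI at 12 weeks. Ctgf, a matricellular target of TGF-beta and mechanical signals, was 5.14-fold higher (4.16 to 6.32) in the chosen and 11.0-fold (9.36 to 12.8) in the other FBs. Each of these genes was highest at 2 weeks. At 12 weeks Fn1 and Eln stood below the healthy level and Thbs1 and Ltbp2 above it.

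**Figure D5:**
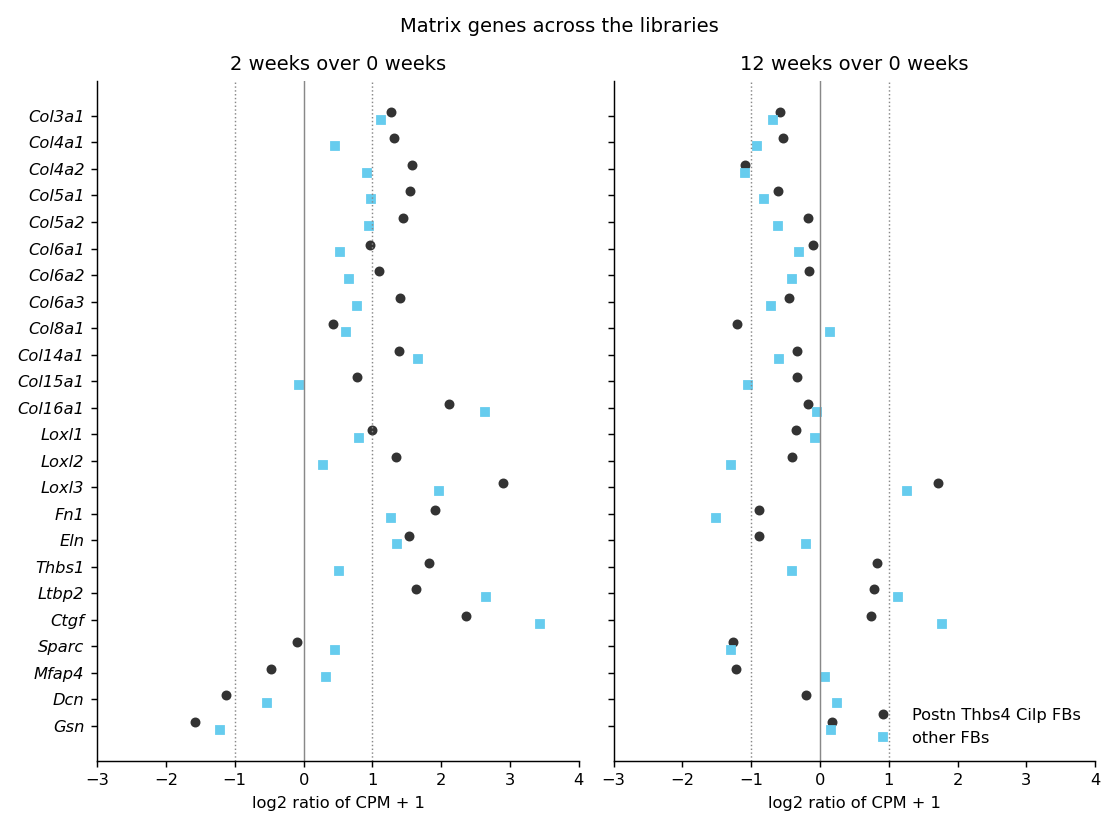
log2 ratio to 0 weeks (CPM with 1 added, x axis) of 24 matrix genes at 2 weeks and at 12 weeks, in the Postn Thbs4 Cilp FBs and in the other FBs; all ratios share the healthy library. Among the genes drawn, which leave out Lox, Loxl3 stands farthest out in the chosen FBs at 2 weeks, at 2.90, and Ctgf in the other FBs, at 3.44.

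Decorin and gelsolin, abundant transcripts of resting FBs, were lower at 2 weeks. Dcn was at 12705.8, 5797 and 11010.9 CPM, 2.19-fold lower (2.01 to 2.39), and Gsn at 19252.6, 6436 and 21655.8 CPM, 2.99-fold lower (2.76 to 3.25). In the other FBs they were 1.44-fold (1.38 to 1.51) and 2.33-fold lower (2.24 to 2.43). Among small leucine-rich proteoglycans 2 of 7 were lower (Dcn and Ecm2) and none higher, beside 5.24% and 10.2% of all genes tested. In the other FBs none of 8 passed 2-fold either way. Cst6 was 3.05-fold lower (1.58 to 6.76) at 2 than at 0 weeks in the chosen FBs, while in the other FBs its log2 ratio was -0.04.

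Ptgs2, cyclooxygenase 2, was 6.26-fold higher (4.13 to 9.41) at 2 weeks, Nr4a3 6.80-fold (4.38 to 10.5) and Nr4a2 4.74-fold (3.58 to 6.22), both orphan nuclear receptors. The other FBs had log2 ratios of 0.91, 0.67 and 1.48 for these 3 genes. Sdc3, a heparan sulphate proteoglycan of the cell surface, was 7.13-fold higher (4.90 to 10.3), with a UMI in 21 of 31 cells, and its log2 ratios were 2.41 in the other FBs, 1.68 in ECs and 1.88 in BCs.

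Secreted growth factors and cytokines were at least 2-fold higher in 6 of 12 cases, with none lower. They were Mdk and Ptn, heparin-binding growth factors, Il6 and Cxcl1, inflammatory mediators, Pdgfa, a mitogen of FBs, and Igfbp5. Pdgfa was at 45.7, 175 and 148 CPM at 0, 2 and 12 weeks and Cxcl1 at 473, 1370 and 449 CPM, while in the other FBs Cxcl1 had a log2 ratio of -0.84 at 2 weeks. A single cell held 51.5% of the Il6 UMIs at 2 weeks. Of 5 Wnt modulators 3 were higher, the secreted inhibitors Frzb (3.50-fold, 2.12 to 5.62), Sfrp2 (2.90-fold, 1.54 to 5.17) and Sfrp1 (2.33-fold, 1.47 to 3.58). Of 9 TGF-beta genes 3 were higher, Ltbp2, the receptor Tgfbr2 (2.70-fold, 1.77 to 4.01) and the feedback inhibitor Pmepa1 (2.26-fold, 1.84 to 2.75). None of 14 contractile genes passed 2-fold, with a median of 0.56, and Acta2 had a ratio of 1.52 (0.838 to 2.60). In the other FBs 4 of 11 secreted factors, 4 of 5 Wnt modulators, 2 of 9 TGF-beta genes and 3 of 10 contractile genes were at least 2-fold higher, with medians of 0.74, 1.63, 0.74 and 0.56. Over all genes tested, 10.2% were higher in the chosen and 5.7% in the other FBs.

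Of the other lists at 2 weeks, beside 10.2% higher and 5.24% lower over all genes tested, proteases had 1 of 15 higher, complement had 1 of 3 lower (Cd55) and endoplasmic reticulum genes had 2 of 17 higher and 3 lower. Adventitial FB genes had 2 of 13 higher and 3 lower, valve, tendon and cartilage genes 2 of 6 higher and 2 lower, immediate early genes 2 of 18 higher and 1 lower, and resting interstitial FB genes 1 of 14 higher (Mt2) and 1 lower (Gsn).

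The 8 genes with the lowest ratios at 2 weeks rested on 3 to 16 UMIs each. Qpct, glutaminyl cyclase, was at 179 and 30.9 CPM on 3 UMIs, a ratio of 0.172 (0.0351 to 0.512). Clec3b was at 704, 165 and 1053 CPM at 0, 2 and 12 weeks, 4.28-fold lower (2.61 to 7.53) at 2 weeks, beside log2 ratios of -2.19 in the other FBs, -3.52 in ECs and -5.01 in BCs. It was thus lower in all 4 of these groups of cells. The others were 2610001J05Rik, Vimp, Abi3bp, Sntb2, Tpm3 and Eif5, with log2 ratios between -1.94 and -1.64.

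At 12 weeks, of 1466 genes, 56 (3.82%) were at least 2-fold higher and 22 (1.5%) lower than at 0 weeks, and in the other FBs 55 of 1361 (4.04%) were higher and 32 (2.35%) lower. With FBs thinned to 1000 UMIs and the limit at 2 UMIs of the rule genes, the chosen FBs had 113 genes higher and 96 lower at 12 weeks, beside 146 and 111 at 2 weeks. None of 11 collagens was higher, all 11 lay below 0 and the median was -0.45, while in the other FBs none of 11 was higher, 10 lay below 0 and the median was -0.69. Col8a1 was at 1402 CPM at 0 weeks and 609.9 CPM at 12 weeks, 2.30-fold lower (1.87 to 2.86), whereas in the other FBs its ratio was 1.10 (0.952 to 1.28). Col4a2 was 2.13-fold lower (1.30 to 3.73), and its log2 ratio was -1.09 in the other FBs as well.

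Sparc, a collagen-binding protein, was at 8966, 8362 and 3717 CPM at 0, 2 and 12 weeks, 2.41-fold lower (2.22 to 2.63) at 12 weeks, and 2.46-fold lower (2.31 to 2.63) in the other FBs. Mfap4, a microfibril protein, was 2.34-fold lower (1.93 to 2.87) in the chosen FBs and had a ratio of 1.05 (0.954 to 1.15) in the other FBs. Sfrp2 had no UMI at 12 weeks and was at least 2.95-fold lower than at 0 weeks. Ltbp2 was 1.72-fold higher (1.22 to 2.38), Igfbp5 2.90-fold (2.14 to 3.90) and Ptn 3.02-fold higher (2.05 to 4.37). For Igfbp5 and Ptn the other FBs had log2 ratios of 0.14 and 1.36. Apoe was 2.62-fold higher (2.36 to 2.90), with 40.3% of its UMIs in 1 cell, and Csrp1, a LIM protein of contractile cells, was 2.25-fold higher (1.53 to 3.26), the 1 of 11 contractile genes past 2-fold.

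Several of the largest ratios at 12 weeks were of like size in the other FBs, ECs and BCs. Gstp1, a glutathione transferase, was at 12.3 and 488 CPM at 0 and 12 weeks, a log2 ratio of 5.20, beside 4.24 in the other FBs, 5.04 in ECs and 3.82 in BCs. Gm10116 (5.20), Gm10020 (3.78), Gm10073 (3.18) and Gm10076 (3.00), predicted genes that can share reads with near-identical copies, had log2 ratios of at least 2.57 in each of these groups. Their counts are uncertain for that reason, and the ratios were not confined to these FBs. Ctla2a, a cysteine protease inhibitor, was 12.3-fold higher (6.47 to 24.4), with log2 ratios of 5.12 in the other FBs, 0.33 in ECs and 2.86 in BCs. Tubb3, a neuronal tubulin, was 12.4-fold higher (6.35 to 25.2), but 76.7% of its 30 UMIs came from 1 of 7 cells, and the other FBs had a log2 ratio of -0.34. After thinning to 1000 UMIs per cell, Tubb3 turned to -0.79 in the chosen FBs.

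Among the lower genes, Neat1, a nuclear non-coding RNA, was at 733, 525 and 250.4 CPM at 0, 2 and 12 weeks, 2.93-fold lower (2.12 to 4.16) at 12 weeks, beside log2 ratios of -1.64 in the other FBs, -1.35 in ECs and -0.65 in BCs. Prrc2c, an RNA-binding protein, was 3.58-fold lower (1.78 to 8.43), with a log2 ratio of -0.81 in the other FBs. Akap12, a kinase scaffold, was 3.32-fold lower (1.64 to 7.83) and turned to 0.24 (log2) after thinning. The others were Mxd4, Creb5, Ptgfrn, Tra2a and Spag9, with log2 ratios between -1.48 and -1.32 on 9 to 13 UMIs, of which Ptgfrn turned to 0.12 after thinning. Each of these lower genes other than Neat1 thus rested on fewer than 20 UMIs at 12 weeks.

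No list had more than 2 genes past 2-fold at 12 weeks in either direction. Of all genes tested, 3.82% were higher and 1.5% lower. Matrix glycoproteins had 0 of 23 higher and 2 lower (Sparc and Mfap4), secreted factors 2 of 9 higher, adventitial FB genes 1 of 13 higher (Igfbp5) and resting interstitial FB genes 1 of 12 higher (Apoe), with none lower in the last 3. Collagen processing (10 genes), small leucine-rich proteoglycans (7), proteases (16), TGF-beta genes (7), Wnt modulators (3), endoplasmic reticulum genes (17), complement (3), valve, tendon and cartilage genes (6) and immediate early genes (17) had none. Loxl2 was at 265, 679.6 and 199 CPM at 0, 2 and 12 weeks.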

How the data were processed

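Single-cell RNA-seq was made from non-cardiomyocyte cells of the ventricles of mice at 0, 2 and 12 weeks after TAC, 1 library per phase. The authors processed the reads with Cell Ranger 2.0.0, per the submitters' processing notes, against mm10, and deposited raw UMI counts per gene and cell; the unit here is therefore a count. The chosen cells and the gene lists were set with earlier results of these data known.

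UMIs were summed over the cells of each group and divided by the group total (CPM). The depth of a group is its total count, given with the results. A difference was described by the log2 ratio of CPM with 1 added and by a 2-fold size rule, for genes with a mean of at least 100 CPM and at least 20 UMIs. Intervals are exact, at 95%, and cover counting error only. No test was run, since there was 1 library per phase. A gene with no UMI was set against a floor of 3 counts per group. The scripts were tested on simulated data with known ratios. Python 3.11.15, numpy 2.4.6, scipy 1.17.1, pandas 2.3.3 and matplotlib 3.10.9 were used.

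Genes named against the other FBs were the 12 with the largest log2 ratio each way in the healthy library, with at least 50 UMIs in the higher group and on 1 side of 0 in all 3 libraries. Genes named across phases were the 8 with the largest ratio each way, with at least 20 UMIs in the higher group, and to these were added Cst6, 2 to 4 examples of each list and genes that frame a result. Some genes that met these rules are not reported here. The split by leading gene and the cycling limit were chosen after seeing the data, as were the genes named in them, and Tnc. No doublet caller was run. Instead, FBs with 2 or more UMIs of another lineage were left out as an alternative. Further alternatives were other rule limits, thinning, gene and mitochondrial limits per cell, other level filters, 10 CPM added, means over cells and centring.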

Additional observations from a re-analysis of the deposited data

Results flagged for a closer look

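The log2 ratio of 2610001J05Rik between 2 and 0 weeks was -1.94 in the Postn Thbs4 Cilp FBs and 0.17 in the other FBs, opposite directions in the 2 sets of FBs, on 4 UMIs in the chosen FBs at 2 weeks. The log2 ratio of Tubb3 between 12 and 0 weeks was 3.54 in the chosen FBs and -0.34 in the other FBs, with 76.7% of the UMIs at 12 weeks in 1 cell. With 1 library per phase neither difference between the sets of FBs was tested.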

How the results depend on the processing

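No paired analysis was possible because each phase had 1 library, and for the same reason no library could be left out. Where values moved, the cause was not tested. The share of FBs that met the rule (15.8%, 32.0% and 18.5% at 0, 2 and 12 weeks) was 21.9% at 0 weeks with a limit of 3 UMIs, 8.97%, 20.6% and 9.26% with a limit of 10, 47.3% and 28.7% at 2 and 12 weeks after thinning, and 20.1%, 51.5% and 34.0% with no limit on Wif1, Comp and Chad.

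Counts of genes past 2-fold against the other FBs moved as follows. At 0 weeks the 7 higher became 14 with a limit of 10, 19 after thinning, 14 with no limit on the valve genes, 18 and 3 with a level filter of 50 and 200 CPM, and 13 with other FBs over 1 valve-gene UMI left out (an alternative added after seeing the data), and the 17 lower became 30 with a limit of 10 and 9 at 200 CPM. At 2 weeks the 80 higher became 121 with a limit of 10, 32 after thinning, 122 and 25 at 50 and 200 CPM and 145 by means over cells, and the 59 lower became 27 after thinning and 140 and 21 at 50 and 200 CPM. At 12 weeks the 51 higher became 94 with a limit of 10, 146 and 13 at 50 and 200 CPM, 29 after centring and 77 with other FBs over 1 valve-gene UMI left out, and the 36 lower became 21 and 56 with limits of 3 and 10, 69 after thinning, 91 and 12 at 50 and 200 CPM, 57 after centring and 64 with other FBs over 1 valve-gene UMI left out.

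Between 2 and 0 weeks the 148 higher became 94 with no valve-gene limit and 380 and 61 at 50 and 200 CPM, and the 76 lower became 42, 212 and 18. Between 12 and 0 weeks the 56 higher became 87 with a limit of 10, 113 after thinning and 167 and 17 at 50 and 200 CPM, and the 22 lower became 54 with a limit of 10, 34 with a limit of 1500 CPM, 96 after thinning, 35 without FBs holding UMIs of another lineage, 93 and 8 at 50 and 200 CPM and 40 by means over cells. The remaining 110 values of shares and counts stayed within 1.5 times or the interval.

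Of the named genes, 22 values past 2-fold changed sign, 205 moved beyond counting error and 1201 did not. With values under 2-fold included, 3, 17 and 14 changed sign against the other FBs at 0, 2 and 12 weeks, 0 between 2 and 0 weeks and 3 between 12 and 0 weeks. Against the other FBs, 1500015O10Rik turned to 1.38, 1.63 and 0.79 at 0, 2 and 12 weeks with no valve-gene limit, to 0.42 and 0.65 at 2 and 12 weeks after thinning and to 0.30 and 1.59 with other FBs over 1 valve-gene UMI left out. Fmod turned to 1.82 and 0.98 at 0 and 2 weeks with no valve-gene limit and to 0.95 and 0.85 with those FBs left out. At 2 weeks a limit of 10 gave -1.33 for S100a4, -1.29 for Prnp and -0.09 for Tppp3, and thinning gave 0.05 for Fgl2. At 12 weeks a limit of 1500 CPM gave -2.36 for S100a4 and -0.26 for Prnp, and thinning gave -0.67 for S100a4 and 0.21 for Gsta3. Between 12 and 0 weeks thinning gave -0.79 for Tubb3, 0.24 for Akap12 and 0.12 for Ptgfrn. At 31 and 30 chosen FBs, depth limits every value after TAC, and genes on fewer than 20 UMIs carry the widest intervals.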
